A study of Mus musculus with 32 samples.

Results

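The genes described here are 10 genes of T and natural killer (NK) cells, chosen by name from the 22337 genes of the deposited tables: Cd3d, Cd3e, Cd3g, Cd4, Cd8a, Lck, Nkg7, Gzma, Gzmb and Ptprcap. Their levels were compared in hippocampus and meninges, and sorted lymphatic endothelial cells (LECs) served as a background in which lymphocytes were gated out. RNA-seq was available for 32 samples, each from the tissue of 1 mouse. The hippocampus was sampled from 4 WT, 4 5xFAD and 4 light-treated 5xFAD mice, and the meninges and the LECs each from 4, 3 and 3 such mice. All mice were males of 6 months on a C57BL/6J background, and WT mice were littermates without the transgenes. The 5xFAD transgenes are human genes with familial Alzheimer's disease mutations under the Thy1 promoter, so that Thy1 itself cannot serve as a T cell marker here. Light-treated mice received near-infrared light on the shaved scalp for 10 min, 3 times per week for 4 weeks, under isoflurane. Mice without light were anesthetized and shaved in the same way and kept under room lighting. LECs were sorted from the meninges as CD45-negative, CD31-positive, podoplanin-positive cells. Groups are named WT, 5xFAD and 5xFAD + light below.

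T cells recognize antigen through the T cell receptor, whose signal is carried into the cell by the CD3 chains and started by the kinase Lck, which is bound to the coreceptors CD4 and CD8. Cytotoxic T cells and NK cells kill through granules that hold granzymes, and NKG7 is a membrane protein of these granules. The meninges hold resident and circulating lymphocytes in health, whereas the brain parenchyma holds few, and T cells are known to enter the brain in models of amyloid disease. In the mouse, Cd4, Cd8a and Gzmb can also be expressed by dendritic cells.

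The promoters of 3 of these genes are shown because their levels carry most of what follows, and those of Lck because it was found where the other genes were not. The sequences are from RefSeq (GRCm38.p6), read 5′ to 3′ on the strand of the gene, up to 250 bases before the start site, and they stop where an annotated exon begins. Cd3g and Cd3d lie head to head on chromosome 9, with their start sites 1355 bp apart. The Cd3g window is chr9:44980432-44980681 (minus strand), the Cd3d window is chr9:44981536-44981785 (plus strand) and the Nkg7 window is chr7:43436888-43437072 (plus strand). Lck has a distal and a proximal start, with windows at chr4:129573642-129573891 and chr4:129558392-129558622 (minus strand). Capitals mark 3 short motifs searched on both strands, the Ets core AGGAAG, the Runx motif TGTGGT and the E-box CACCTG, which were present in 29.5%, 14.0% and 17.2% of 32817 RefSeq windows of 250 bases.
Cd3g: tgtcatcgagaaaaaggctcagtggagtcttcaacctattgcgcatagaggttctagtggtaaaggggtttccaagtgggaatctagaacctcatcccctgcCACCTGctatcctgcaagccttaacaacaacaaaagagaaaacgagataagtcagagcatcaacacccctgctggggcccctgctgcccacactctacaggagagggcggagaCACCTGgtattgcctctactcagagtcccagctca
Cd3d: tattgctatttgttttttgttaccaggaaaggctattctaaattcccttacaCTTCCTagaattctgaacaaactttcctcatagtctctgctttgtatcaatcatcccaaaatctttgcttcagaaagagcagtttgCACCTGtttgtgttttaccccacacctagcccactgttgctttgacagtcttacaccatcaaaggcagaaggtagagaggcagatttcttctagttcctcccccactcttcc
Nkg7: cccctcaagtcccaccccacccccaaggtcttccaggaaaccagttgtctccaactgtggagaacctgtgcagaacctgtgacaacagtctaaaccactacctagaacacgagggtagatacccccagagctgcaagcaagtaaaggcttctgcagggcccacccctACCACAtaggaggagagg
Lck distal: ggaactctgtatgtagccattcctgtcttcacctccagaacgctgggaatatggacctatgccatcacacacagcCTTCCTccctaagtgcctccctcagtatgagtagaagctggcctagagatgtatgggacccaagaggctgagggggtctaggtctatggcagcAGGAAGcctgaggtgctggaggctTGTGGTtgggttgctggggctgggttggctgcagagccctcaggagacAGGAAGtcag
Lck proximal: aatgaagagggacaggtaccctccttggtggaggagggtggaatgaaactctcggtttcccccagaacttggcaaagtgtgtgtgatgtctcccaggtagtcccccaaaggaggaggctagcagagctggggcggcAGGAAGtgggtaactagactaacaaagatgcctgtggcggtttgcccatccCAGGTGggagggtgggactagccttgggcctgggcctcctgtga
The Cd3g window held 2 E-boxes, and the Cd3d window held 1 Ets core and 1 E-box. The Nkg7 window held 1 Runx motif. The distal window of Lck held 3 Ets cores and 1 Runx motif, and the proximal window held 1 Ets core and 1 E-box. These matches describe the letters of the windows and are not measured binding. No promoter entry was given for Cd4 or Ptprcap.

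The genes lie at chr9:44981786-44987339 (Cd3d), chr9:44998740-45009627 (Cd3e), chr9:44969572-44980431 (Cd3g), chr6:124864692-124888221 (Cd4), chr6:71373427-71379173 (Cd8a), chr4:129548344-129573641 (Lck), chr7:43437073-43438249 (Nkg7), chr13:113093825-113100981 (Gzma), chr14:56258838-56262260 (Gzmb) and chr19:4153604-4156751 (Ptprcap) in the GENCODE annotation of GRCm38, and each is annotated as protein coding. Ptprcap shares exon bases with Rps6kb2 on the opposite strand and with Coro1b on its own strand, so its values are uncertain, and Cd3e shares some with Gm48719. The sources used here do not state whether reads were counted by strand.

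Sequencing depth was 13952825 to 23856476 counts per hippocampus sample, 6601143 to 14708202 per meninges sample and 14231415 to 24207326 per LEC library. Levels are given as FPKM, fragments scaled by transcript length and library size, which can be compared between genes. The FPKM of a gene did not always follow its counts between samples, as for Cd3d and Lck below. The reason was not tested. Differences were tested by edgeR's quasi-likelihood test on the counts, and a gene was called when its Benjamini-Hochberg adjusted p over all tested genes was below 0.05 and its change at least 2-fold. Neuron markers (5 genes) summed to 1381 to 1910 FPKM in hippocampus and 79.0 to 456 in meninges, and fibroblast markers (5 genes) to 8.54 to 104 and 840 to 1981. The meninges samples also held choroid plexus markers (4 genes, 15634 to 49145 FPKM). In bulk tissue, fewer lymphocytes and less RNA per lymphocyte cannot be told apart.

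To see where these genes were expressed in healthy mice, WT meninges were compared with WT hippocampus. All 10 genes were called higher in meninges, in which every meninges sample lay above every hippocampus sample for each gene. Of all 18569 genes tested, 50.5% were called, 31.1% were called higher in meninges, and 33% were higher without overlap. The median log2 fold change of the 10 genes was 5.45, against 0.27 over all genes tested, and includes fitted values that depend on the prior count for the genes nearly absent from hippocampus. The order of mean levels in WT meninges ran from Nkg7 (12.4 ± 6.11 FPKM, SD, n = 4) and Ptprcap (9.36 ± 3.61) over Cd3g (5.59 ± 3.88), Cd3d (4.25 ± 2.70), Lck (3.56 ± 1.74), Gzma (2.83 ± 1.34), Cd3e (1.90 ± 1.57), Cd4 (1.18 ± 0.52) and Cd8a (0.85 ± 0.48) to Gzmb (0.53 ± 0.33). Ptprcap lay above Cd3g in 4 of 4 samples, whereas every other pair of neighbours in this order changed places in at least 1 sample.

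In WT hippocampus, 9 of the 10 genes were near the limit of detection. Cd8a had 1 count in all 4 samples together, Cd3g had 2, Gzma had 3, and Cd3d, Nkg7 and Gzmb had 5 each. Lck was the exception, with FPKM of 0.68, 1.14, 0.84 and 0.57 and 126 counts. Lck therefore differed least between the tissues, by 2.01 ± 0.42 (SE) on the log2 scale with an adjusted p of 0.0013 from edgeR. For Cd3g and Cd8a, with 2 and 1 counts in WT hippocampus, the fitted fold change depends on the prior count, and the ratio of counts per library total between meninges and hippocampus was 209 (95% exact interval 57.2 to 1736) and 221 (38.9 to 8782), which covers counting error only. Gzmb was closest to the threshold, at a log2 fold change of 3.43 ± 1.25 (SE) and an edgeR adjusted p of 0.0304. It lost its call without WT hippocampus replicate 2, 3 or 4 (adjusted p of 0.0683, 0.0681 and 0.0683) and without WT meninges replicate 1 (0.0799). The plot of mean levels over the 9 groups shows the same order of tissues.

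**Figure D1:**
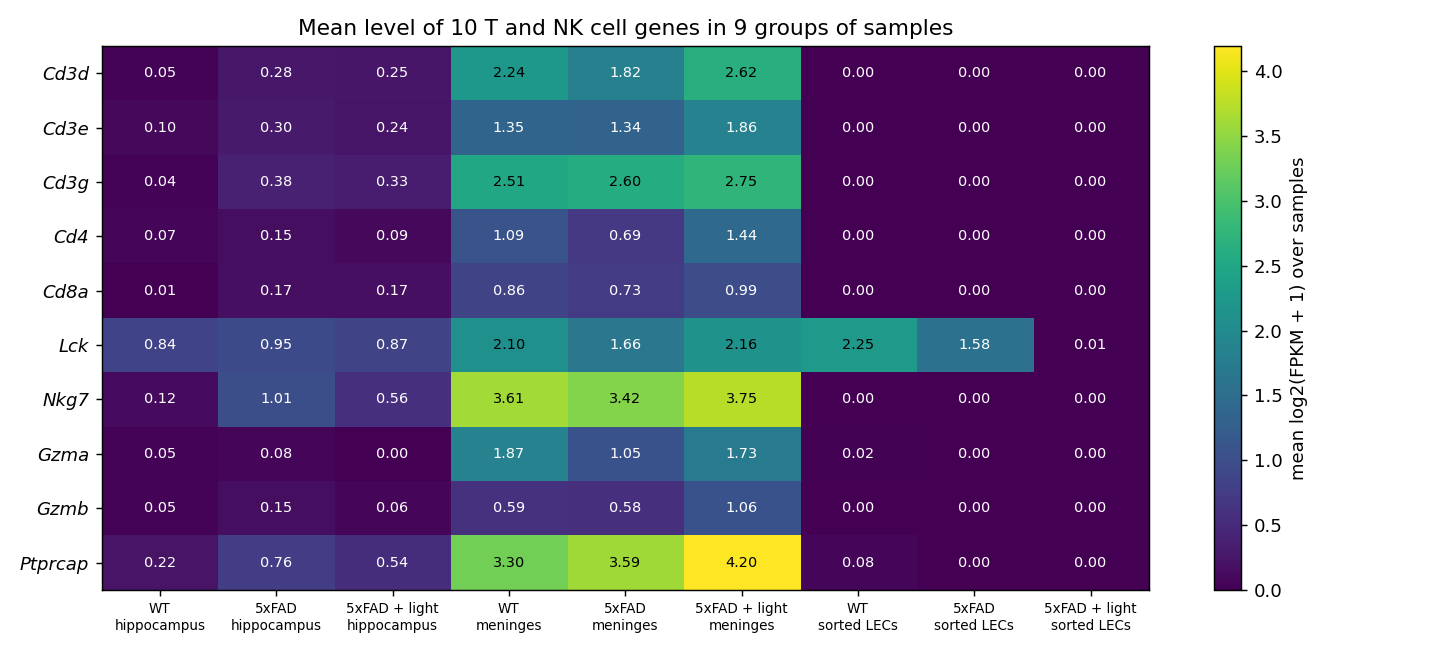
Mean log2(FPKM + 1) of the 10 genes (rows) in the 9 groups of samples (columns), with the mean printed in each cell and coloured from dark (0) to yellow (4.20, Ptprcap in 5xFAD + light meninges). Levels are high in the meninges columns and low in the hippocampus columns, and in LECs Lck is the single gene with a mean above 0.1.

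In sorted LECs, 7 of the 10 genes had a count of 0 in all 10 libraries, among them the 3 CD3 genes, both coreceptors, Nkg7 and Gzmb. A count of 0 allows up to 3 counts, that is 0.124 to 0.211 CPM (counts scaled to the library total) at these depths. Gzma had 1 count and Ptprcap 6.29 counts, both in WT replicate 4. Lck had FPKM of 0.02, 0, 19.1 and 23.8 in WT, 18.2, 0.40 and 0 in 5xFAD, and 0, 0.02 and 0 in 5xFAD + light. Thus 3 of 10 LEC libraries held more Lck than any meninges sample, and the others held almost none. The pan-leukocyte markers Ptprc, Coro1a and Laptm5 were at 0 in all 10 LEC libraries, as were all 5 NK cell markers. The 7 T cell markers were at 0 in 9 of 10 libraries and summed to 0.49 FPKM in 5xFAD replicate 2, with Trac at 0.30. The 7 B and plasma cell markers were at 0 in 6 libraries and summed to 5.95 to 16.5 FPKM in 4, nearly all of it Cd79a. Lck alone could be tested and was called in neither comparison by edgeR (adjusted p of 1 for 5xFAD against WT and 0.653 for 5xFAD + light against 5xFAD), where 0 of 11804 genes were called. By unadjusted p below 0.05, 0 of 1 was below it in each comparison, against 5.95% and 3.49% of all genes, and DESeq2 and limma called it in neither. The biological coefficient of variation in LECs was 2.13, against 0.220 in hippocampus and 0.429 in meninges. The 6 lymphatic markers were detected in each LEC group, with a sum of 34.4 to 363 FPKM per sample, below that of 4 blood endothelial markers (664 to 2891 FPKM).

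The first question was whether T and NK cell genes differ in the hippocampus of 5xFAD mice. Nkg7 was higher in 5xFAD than in WT mice past both thresholds, and the 8 other genes that could be tested were not called. Of all 17286 genes tested, 3.86% were called, 3.81% in the higher and 0.0579% in the lower direction. Nkg7 had FPKM of 0, 0.06, 0.19 and 0.12 in WT and 1.43, 0.90, 1.11 and 0.68 in 5xFAD mice. Every 5xFAD sample lay above every WT sample, as was the case for 8.09% of all genes. The log2 fold change was 3.58 ± 0.71 (SE), with an edgeR adjusted p of 0.0068. It rested on 68 counts in 5xFAD and 5 in WT, which gives a ratio of 13.8 per library total (95% exact interval 5.65 to 44.0). This interval and the exact intervals below cover counting error only, and not differences between mice. Nkg7 was called in each of the 8 fits that left out 1 sample. It was not called by limma on log2(FPKM + 1), in which its change was 0.88 with an adjusted p of 0.0011.

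Among the CD3 chains, Cd3g came closest to the threshold. Cd3g had FPKM of 0, 0.05, 0 and 0.05 in WT and 0.62, 0.22, 0.20 and 0.21 in 5xFAD mice, so that the groups did not overlap. These were 2 counts against 25, a ratio of 12.7 (95% exact interval 3.17 to 111, counting error only), and the edgeR adjusted p was 0.0579. DESeq2 (adjusted p of 0.0488), limma on log2(FPKM + 0.1) (0.0290) and the fit without 5xFAD replicate 4 (0.0493) called it. Cd3d had FPKM of 0.05, 0, 0 and 0.09 in WT and 0.69, 0.24, 0 and 0.03 in 5xFAD mice, and Cd3e 0.03, 0.19, 0 and 0.07 in WT and 0.40, 0.30, 0.05 and 0.19 in 5xFAD mice. For both, the groups overlapped and edgeR's adjusted p was 0.332 and 0.284. The difference in Cd3d rested on 5xFAD replicate 1, which held 23 of its 26 counts: without it the log2 fold change went from 2.26 to -0.27. The 0.24 FPKM of Cd3d in 5xFAD replicate 2 rested on 2 counts.

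Of the coreceptors, Cd8a marks cytotoxic T cells. Cd8a had FPKM of 0, 0.02, 0 and 0 in WT and 0.39, 0.07, 0.02 and 0.05 in 5xFAD mice, with 25 of the 34 counts in 5xFAD replicate 1. The ratio of 34 counts to 1 was 34.6 (95% exact interval 5.81 to 1407, counting error only), and the edgeR adjusted p was 0.0722. It was called by DESeq2 (adjusted p of 0.0238) and without 5xFAD replicate 3 (0.0487), while the adjusted p was 0.245 without 5xFAD replicate 1. Cd4, the coreceptor of helper T cells, had FPKM of 0.04, 0.07, 0 and 0.08 in WT and 0.09, 0.06, 0.25 and 0.05 in 5xFAD mice, with an edgeR adjusted p of 0.555. Lck lay between 0.57 and 1.14 FPKM in WT and between 0.53 and 1.29 in 5xFAD mice, and its log2 fold change was 0.25 ± 0.39 (SE). The Lck level in hippocampus thus overlapped between the groups and stood apart from that of the CD3 genes.

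The granzymes were barely detected. Gzma had 6 counts over the 12 hippocampus samples, 3 in WT replicate 1 and 3 in 5xFAD replicate 3, and was not tested. Gzmb had FPKM of 0.14, 0, 0 and 0 in WT and 0.27, 0.09, 0 and 0.11 in 5xFAD mice, with an edgeR adjusted p of 0.526. Ptprcap, which encodes a protein associated with the leukocyte phosphatase CD45, had FPKM of 0.18, 0, 0 and 0.58 in WT and 1.29, 0.69, 0.50 and 0.40 in 5xFAD mice, with an edgeR adjusted p of 0.269. Over the 9 genes tested, fold changes ran from 0.25 to 4.45 on the log2 scale with a median of 1.80, against 0.02 over all genes, 52.6% of which had a positive fold change. The highest, of Cd8a with 1 count in WT, depends on the prior count. This is a description, since 6 of the 9 had under 10 counts in WT hippocampus and passed the filter on low counts through the 5xFAD groups. An unadjusted p below 0.05 was found for 3 of the 9, against 21.7% of all genes. The plot of hippocampal levels by sample shows how far single mice carried these values.

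**Figure D2:**
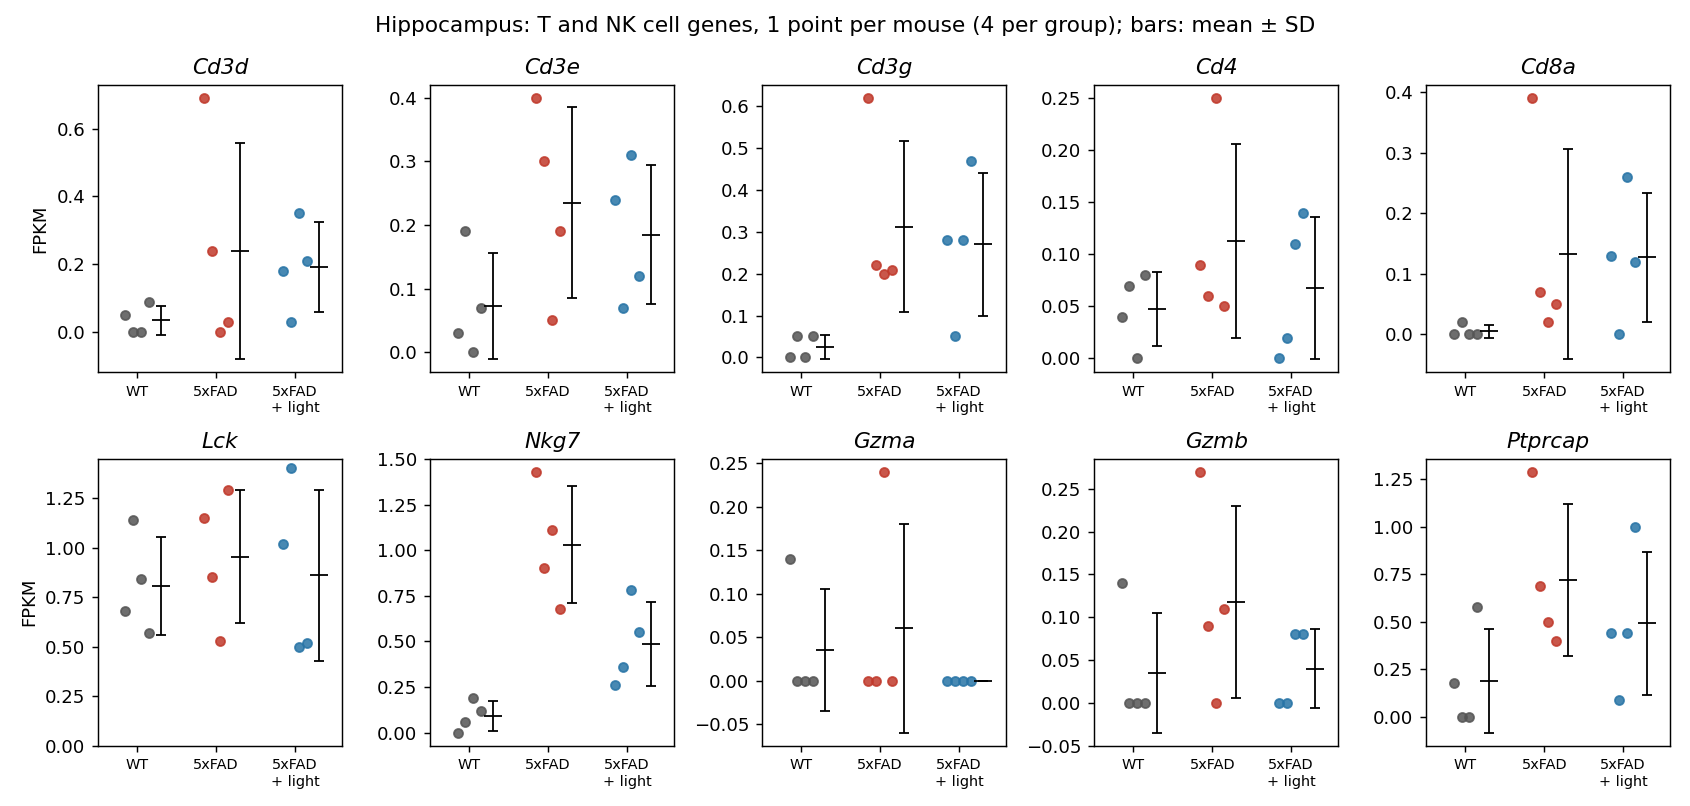
FPKM of each of the 10 genes in hippocampus, 1 point per mouse (4 per group) with the mean and SD beside the points, and a scale of its own for each gene. The Nkg7 points of 5xFAD mice (0.68 to 1.43) lie above those of WT mice (0 to 0.19), and 1 5xFAD mouse stands apart in Cd3d, Cd3g and Cd8a.

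Markers of several other cell types differed in level between these groups, while others overlapped. The summed FPKM of 6 microglia markers ran from 204 to 232 in WT, from 480 to 658 in 5xFAD and from 397 to 578 in 5xFAD + light hippocampus, and none of them was at 0. The sum of 5 NK cell markers was 0.11 to 0.35 in WT, 0.33 to 0.81 in 5xFAD and 0.06 to 0.21 in 5xFAD + light mice, and the sum of 6 dendritic cell markers was 1.54 to 2.47, 0.83 to 2.53 and 1.63 to 3.13. Border macrophage markers summed to 2.86 to 4.98 in WT and 6.64 to 16.3 in 5xFAD hippocampus, and 2.41 to 5.94 with light. The 7 neutrophil and marrow markers summed to 0.97 to 2.07 in WT, 3.48 to 9.20 in 5xFAD and 0.44 to 3.64 in 5xFAD + light mice. The 7 T cell markers, which include the 3 CD3 genes, summed to 2.11 to 3.91, 3.72 to 47.1 and 2.43 to 4.12, and the 47.1 belonged to 5xFAD replicate 3. The sum of 4 choroid plexus markers varied within groups, from 35.8 to 2787 in WT, from 204 to 3183 in 5xFAD and from 61.8 to 242 in 5xFAD + light mice, with the highest value in 5xFAD replicate 1, which also had the highest levels of Cd3d, Cd3e, Cd3g, Cd8a, Nkg7, Gzmb and Ptprcap. The part of these cells in the results was not tested.

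The second question was whether light changed these genes in the 5xFAD hippocampus. None of the 9 genes tested was called by edgeR, 0 had an unadjusted p below 0.05, and DESeq2 and limma called 0 as well. Of all genes, 0.197% were called and 16.5% had an unadjusted p below 0.05. Nkg7 had FPKM of 0.26, 0.36, 0.78 and 0.55 in 5xFAD + light mice, which overlapped with 5xFAD mice (0.68 to 1.43). Its log2 fold change was -1.02 ± 0.59 (SE), with an edgeR adjusted p of 0.398. Cd3g had FPKM of 0.28, 0.05, 0.28 and 0.47 with light, Cd8a 0.13, 0, 0.26 and 0.12, and Cd3d 0.18, 0.03, 0.35 and 0.21. For Cd3d these were 5, 1, 10 and 1 counts, so the 0.21 FPKM of replicate 4 rested on 1 count. Gzma was at 0 counts in all 4 light-treated samples. The 9 log2 fold changes ran from -1.50 (Gzmb) to -0.11 (Cd8a), with a median of -0.40 against 0.00 over all genes, and each was smaller than 2 of its SEs. The directions leaned on 5xFAD replicate 1, without which Cd3d, Cd3e, Cd3g and Cd8a had fold changes of 2.13, 0.04, 0.38 and 1.33.

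Compared with WT mice, which are also the controls of the first comparison, 5xFAD + light mice had 0 of the 9 genes called by edgeR, whereas 2.13% of all genes were called. An unadjusted p below 0.05 was found for 3 of the 9, against 15.8% of all genes. Nkg7 did not overlap between the groups, as was the case in the higher direction for 6.85% of all genes, and had a log2 fold change of 2.56 ± 0.73 (SE) with an edgeR adjusted p of 0.0858. DESeq2 called Nkg7 and Cd8a (adjusted p of 0.0381 and 0.0470), limma on log2(FPKM + 0.1) called Nkg7 (0.0309), and limma on log2(FPKM + 1) called 0. Cd3g had 19 counts with light and 2 in WT, a ratio of 10.5 (95% exact interval 2.52 to 92.7, counting error only).

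In meninges, all 10 genes had counts in every sample, from 3 counts (Cd3e in WT replicate 3) upward, with 4 to 39 per sample for Gzmb and 5 to 35 for Gzma, and none was called between 5xFAD and WT mice. By edgeR, 0% of 19638 genes were called in this comparison, and DESeq2 and limma called 0 of the 10 genes. Lck alone had an unadjusted p below 0.05, as did 3.78% of all genes. Lck had FPKM of 2.07, 5.08, 2.02 and 5.05 in WT and 2.37, 1.56 and 2.66 in 5xFAD meninges. The 5xFAD values rested on 16, 39 and 56 counts. The groups overlapped, and the log2 fold change was -1.09 ± 0.50 (SE) with an edgeR adjusted p of 0.996. Nkg7, called in hippocampus, had FPKM of 5.14, 16.3, 9.70 and 18.5 in WT and 9.42, 14.3 and 6.72 in 5xFAD meninges. Its log2 fold change was -0.33 ± 0.49 (SE), with an edgeR adjusted p of 0.996.

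The CD3 genes varied widely between WT mice, and their groups overlapped. Cd3d was 1.84, 5.74, 2.11 and 7.30 FPKM in WT and 2.52, 2.94 and 2.17 in 5xFAD meninges. Cd3g was 2.84, 7.64, 1.88 and 10.01 in WT and 3.02, 6.31 and 6.58 in 5xFAD, and Cd3e was 1.04, 2.64, 0.22 and 3.70 in WT and 0.68, 2.38 and 1.85 in 5xFAD. WT replicates 2 and 4 held the higher levels of all 3 chains and of Lck and Nkg7. Cd4 was 0.52 to 1.79 FPKM in WT and 0.19 to 1.20 in 5xFAD, and Cd8a 0.48 to 1.55 and 0.32 to 1.15. Gzma, a granule protease, was 1.32 to 4.54 in WT and 0.57 to 2.40 in 5xFAD, with the lowest fold change of the 10 (-1.26 ± 0.73 SE, edgeR adjusted p of 0.996). Gzmb was 0.30 to 1.01 and 0.42 to 0.60, and Ptprcap 5.72 to 13.1 and 9.60 to 12.5. The median log2 fold change of the 10 genes was -0.34, against -0.01 over all genes, and it was negative for 9 of the 10. For Cd3e, Cd3g, Cd8a and Gzmb, the direction changed without a single sample, such as WT replicate 2 for Cd3e, Cd3g and Cd8a (0.01, 0.13 and 0.21) and WT replicate 1 for Gzmb (0.37).

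**Figure D3:**
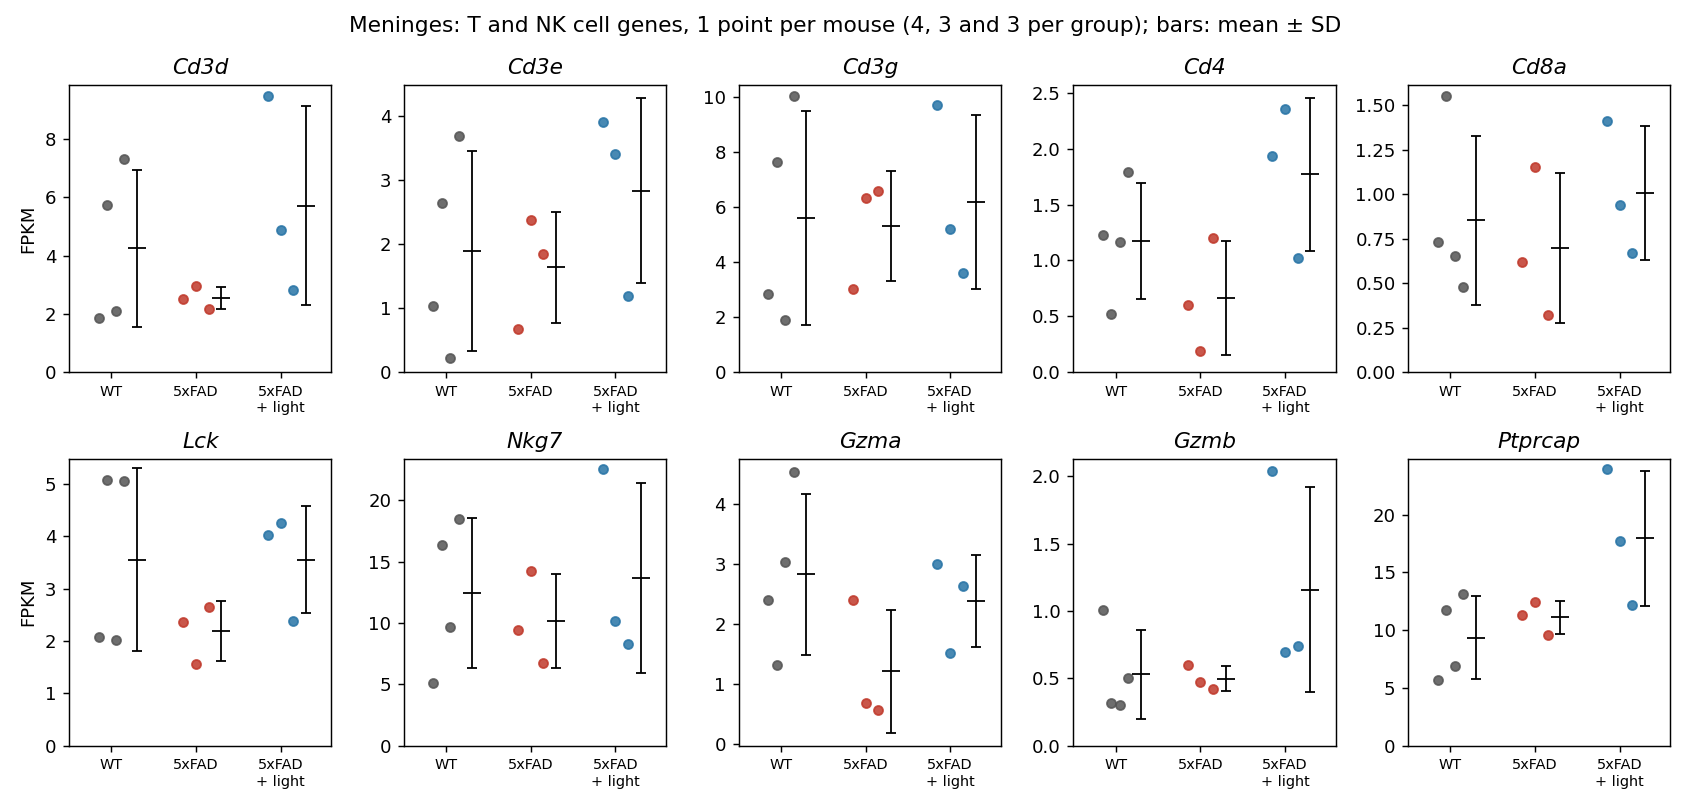
FPKM of each of the 10 genes in meninges, 1 point per mouse (4 WT, 3 5xFAD and 3 5xFAD + light) with the mean and SD beside the points, and a scale of its own for each gene. The groups overlap for every gene except Gzmb between 5xFAD (0.42 to 0.60) and 5xFAD + light (0.70 to 2.04).

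Light-treated 5xFAD meninges were then compared with 5xFAD meninges. By edgeR, 0 of the 10 genes were called, as were 0.0102% of all genes, and DESeq2 and limma called 0 of the 10. All 10 log2 fold changes were positive, from 0.27 (Cd3g) to 1.47 (Cd4), with a median of 0.91 against 0.00 over all genes. Cd4 had FPKM of 0.60, 0.19 and 1.20 in 5xFAD and 1.94, 2.36 and 1.02 with light, and an unadjusted p below 0.05, which 10.6% of all genes had. Its log2 fold change was 1.47 ± 0.64 (SE), with an edgeR adjusted p of 0.451. Lck had 4.02, 4.26 and 2.38 FPKM with light (edgeR adjusted p of 0.478) and Ptprcap 23.9, 17.7 and 12.2 (0.500). Gzmb, at 2.04, 0.70 and 0.74 with light, was the single gene without overlap, as were 7.98% of all genes in the higher direction, and its edgeR adjusted p was 0.618. Nkg7 was 22.5, 10.1 and 8.29 with light, Cd3d 9.46, 4.86 and 2.81, and Cd3g 9.70, 5.21 and 3.59. Replicate 1 of the light-treated mice was the highest of its group for Nkg7, Ptprcap, Cd8a, both granzymes and the 3 CD3 genes.

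That sample also stood apart in other cells. Its 3 erythroid markers summed to 28449 FPKM and its 7 neutrophil and marrow markers to 7320, against 2892 to 10653 and 509 to 3006 over the 9 other meninges samples. The sum of the 10 genes was 81.9 FPKM in it and 24.0 to 64.9 elsewhere. Without it, the log2 fold changes of Nkg7 and Cd3g were -0.20 and -0.31. Light-treated replicate 2 had the highest sum of 7 B and plasma cell markers (694 FPKM, against 116 to 351 elsewhere), and the sum of 5 NK cell markers was 2.75 to 8.28 in WT, 4.55 to 7.04 in 5xFAD and 6.84 to 10.9 with light. The part of these cells in the result was not tested. Compared with WT mice, 5xFAD + light meninges had 0 of the 10 genes called by edgeR, DESeq2 or limma, as had 0.0102% of all genes by edgeR. Ptprcap alone had an unadjusted p below 0.05, which 13.1% of all genes had, with a log2 fold change of 0.96 ± 0.36 (SE) and an edgeR adjusted p of 0.277.

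**Figure D4:**
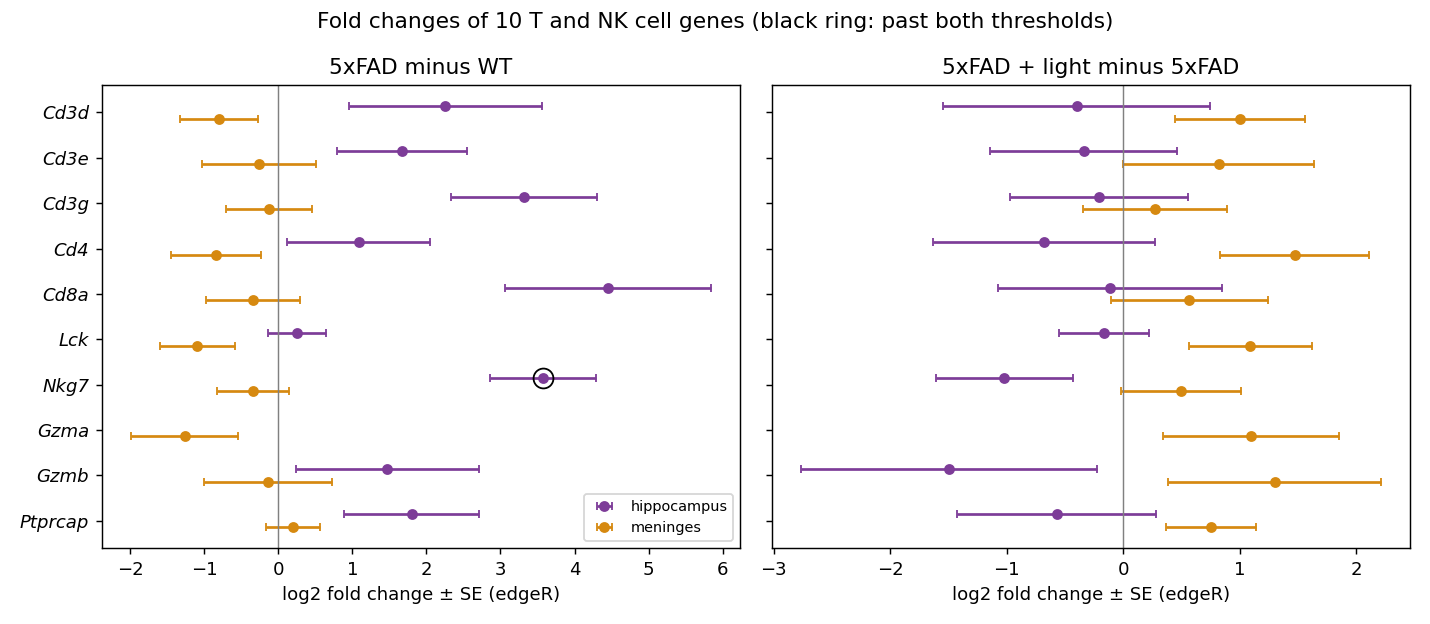
Log2 fold change and its SE from edgeR for the 10 genes in hippocampus (purple) and meninges (orange), for 5xFAD against WT on the left and 5xFAD + light against 5xFAD on the right, with a black ring where both thresholds were passed. Nkg7 in hippocampus (3.58 ± 0.71) is the single ringed point, and Gzma has no hippocampal point because it was not tested.

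Whether the effect of the 5xFAD genotype differed between the tissues was tested as an interaction in a fit of both tissues. Nkg7 was called, with a difference of -3.91 ± 0.85 (SE) on the log2 scale, meninges minus hippocampus, and an edgeR adjusted p of 0.0199. In this test 1.16% of 20184 genes were called, 1.12% in the negative direction. The call was lost without WT hippocampus replicate 1, 5xFAD hippocampus replicate 1 or 5xFAD meninges replicate 1 (adjusted p of 0.0527, 0.0504 and 0.0625) and in limma on log2(FPKM + 1) (0.420). None of the 9 other genes was called by edgeR, and DESeq2 also called Cd8a. An unadjusted p below 0.05 was found for 4 of the 10, against 10.7% of all genes. All 10 differences were negative, from -4.69 (Cd8a) to -1.32 (Lck), with a median of -1.91 against -0.09 over all genes, and those of genes nearly absent from WT hippocampus depend on the prior count. For the effect of light, 0 of the 10 genes were called by edgeR, DESeq2 or limma and 0 had an unadjusted p below 0.05, against 0.243% and 17.3% of all genes.

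A list of 81 other genes of T and NK cells was examined in the same fits, in 3 groups: T cell receptor signalling, T cell surface and fate, and NK and cytotoxic function. In hippocampus, 71 of the 81 could be tested, and 15 were called higher and 0 lower in 5xFAD than in WT mice (5 of 25, 3 of 25 and 7 of 21 by group), against 3.81% of all genes called higher. Of their log2 fold changes 56 were positive and 15 negative, with a median of 1.31. The 6 with the smallest p were Cst7, Tyrobp, Lag3, Fcer1g, Srgn and Pdcd1. Cst7, a cysteine protease inhibitor, had FPKM of 0.38 to 0.78 in WT and 125 to 271 in 5xFAD mice, and a log2 fold change of 8.24 ± 0.47 (SE). Tyrobp and Fcer1g, adaptors of activating receptors, changed by 2.80 ± 0.28 and 2.36 ± 0.28 (SE). Lag3 and Pdcd1, inhibitory receptors of T cells, changed by 2.15 ± 0.25 and 4.55 ± 0.58 (SE), and Srgn, a granule proteoglycan, by 1.92 ± 0.24 (SE). Cst7, Tyrobp, Fcer1g, Srgn and Lag3 are also known in microglia, whose markers were higher in these samples, as given above. Trbc2, a constant segment of the T cell receptor, was also called, but 5xFAD replicate 3 held 46.0 FPKM against 0.43 to 2.50 in the other 11 hippocampus samples. Trac, the constant segment of the alpha chain, had 1.03 to 3.14 FPKM in WT and 0.60 to 2.41 in 5xFAD mice. Trbc1, another constant segment, was not called. It had 0 FPKM in every WT and 0.57, 0.42, 0.17 and 0.49 in 5xFAD mice. Cd8b1 and Cd28 were called without overlap at low levels (edgeR adjusted p of 0.0396 and 0.0399). Their mean FPKM was 0 and 0.015 in WT and 0.15 and 0.14 in 5xFAD mice. Trbc2, Trac, Trbc1, Cd8b1 and Cd28 are named here after their values were seen.

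Between 5xFAD + light and 5xFAD hippocampus, 0 of the 71 were called by edgeR and 5 had an unadjusted p below 0.05, which 16.5% of all genes had. The smallest p belonged to Bcl11b, a transcription factor of T cells and of neurons (0.85 ± 0.25 SE, adjusted p of 0.139), and Trbc2 (-3.31 ± 1.02 SE, 0.146). Between 5xFAD + light and WT hippocampus, 9 of the 71 were called higher and 0 lower, against 2.13% of all genes called in either direction, led by Cst7 (8.10 ± 0.47 SE) and Tyrobp (2.53 ± 0.28 SE). In meninges all 81 were tested and 0 were called in each of the 3 comparisons by edgeR, with 3, 6 and 12 at an unadjusted p below 0.05, against 3.78%, 10.6% and 13.1% of all genes. The smallest p between 5xFAD and WT belonged to Bcl11b and Ubash3a, and between 5xFAD + light and 5xFAD to Prkcq (1.22 ± 0.31 SE, adjusted p of 0.391) and Ccl4 (2.05 ± 0.65 SE, 0.392). Between 5xFAD + light and WT, Fyn had the smallest p. In WT mice, 58 of 78 tested were called higher in meninges than in hippocampus, against 31.1% of all genes, and 5 lower, among them Bcl11b (-4.30 ± 0.40 SE). In the interaction of genotype and tissue, 8 of the 81 were called, all in the negative direction, against 1.12% of all genes, led by Cst7 (-7.61 ± 0.68 SE). In LECs 20 were tested and 0 called by edgeR, with 3 and 1 at an unadjusted p below 0.05, against 5.95% and 3.49% of all genes.

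Across the 10 meninges samples, the 10 genes differed in how far they followed each other. The Pearson correlation of log2(FPKM + 1) of each gene with the mean of the other 9 ran from 0.98 (Cd3d) over 0.80 (Cd3e), 0.79 (Ptprcap), 0.76 (Nkg7), 0.76 (Lck) and 0.74 (Cd3g) to 0.44 (Gzmb), 0.41 (Cd8a), 0.39 (Cd4) and 0.17 (Gzma). These are descriptions over 10 samples of 3 groups that share the library scale. Of 13705 other genes with a mean of at least 1 FPKM in meninges, Ifi27l2a (0.925), Bst2 (0.919), 0610010K14Rik (0.918), Mdk (0.916) and Izumo4 (0.913) had the pattern most like the mean of the 10 genes, by the same measure. Ifi27l2a and Bst2 are known as interferon-induced genes. The share of each gene in the sum over the 10 differed between mice: Nkg7 made up 19.8% to 34.7% of the FPKM, Ptprcap 20.2% to 34.6% and Gzma 1.60% to 10.9%.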

How the data were processed

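The authors prepared Smart-seq2 libraries, filtered reads with fastp and quantified them with RSEM, per the study's methods, whereas the submitters' processing notes list Trimmomatic, HISAT2, StringTie, DESeq2 and mm10. The authors deposited expected counts per gene, which are estimated counts without normalization, and FPKM, scaled by transcript length and library size. In each sample, 81.6% to 89.6% of the counts above 0 were whole numbers. The tables had 0 columns of samples that are not listed. The authors' own comparisons were not used.

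For testing, rounded expected counts entered edgeR 4.0.16 (R 4.3.3, TMM factors, quasi-likelihood test) for genes with at least 10 counts over the samples of a fit. The groups of a tissue shared 1 fit. WT tissues were compared in a fit of their own, and interactions in a fit of hippocampus and meninges. The SE is the log2 fold change divided by the square root of F. Calls needed a Benjamini-Hochberg adjusted p below 0.05 and a 2-fold change. Ratios of low counts have exact 95% intervals from library totals, and intervals and floors (3 counts) cover counting error only. The steps were tested on simulated data, in which changes were placed only in genes with a mean of at least 1 CPM. In hippocampus all of the genes described here but Lck lay below this level. Recovery of changes was therefore not checked for them there.

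Replicate numbers were checked for pairing. Deviations from the group means of same-numbered samples correlated at -0.22 to 0.09 in hippocampus, -0.33 to 0.30 in meninges and -0.02 to 0.01 in LECs, so the numbers were not used to pair samples. Between WT hippocampus and WT meninges, same-numbered samples correlated at 0.187, 0.101, 0.008 and 0.046. The sample titles do not give whether these came from the same mouse. Fits of both tissues treated their samples as independent. Replicates differed by more than counting error (chi-square per degree of freedom of 9.25 or more).

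Alternatives were median-of-ratios factors, other filters, the replicate number as a block, the compared groups alone, no fold threshold, DESeq2 1.42.0, limma 3.58.1 on log2(FPKM + 1) and log2(FPKM + 0.1), and leaving out each sample. All 10 genes were named. Of 81 other T and NK genes, the called ones with the smallest p were named, at most 6 per comparison, or 2 with none called, as were the 5 genes most like the 10 in meninges. A listed gene that this rule would name is not reported here. The genes and lists were chosen with earlier results of these data known.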

Additional observations from a re-analysis of the deposited data

Results flagged for a closer look

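In 8 of 42 combinations of a gene and a group, 1 sample of a group of 4 stood apart from the other 3 by Dixon's criterion, which chance meets in about 1 of 20 groups of continuous values. This rate does not apply to groups at 0 in 3 samples, where any count stands apart by construction. In 5xFAD hippocampus, replicate 1 stood apart in Cd3g (0.62 FPKM, 13 counts) and in Cd8a (0.39 FPKM, 25 counts). The 6 other cases were single samples in groups otherwise at 0: Cd8a in WT hippocampus replicate 2 (0.02 FPKM), Gzma in WT hippocampus replicate 1 (0.14) and 5xFAD hippocampus replicate 3 (0.24), Gzmb in WT hippocampus replicate 1 (0.14), and Gzma (0.05) and Ptprcap (0.24) in WT LEC replicate 4. Of all 8, 4 rested on 3 counts or fewer.

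The 5xFAD effect differed between meninges and hippocampus, by the interaction test of edgeR, for Nkg7 (-3.91 on the log2 scale, adjusted p of 0.0199). This call was lost without WT hippocampus replicate 1, 5xFAD hippocampus replicate 1 or 5xFAD meninges replicate 1 and in limma on log2(FPKM + 1). Among the other T and NK cell genes named, it differed for Cst7 (-7.61), Pdcd1 (-5.78), Ccl4 (-5.26), Lag3 (-2.83), Tyrobp (-2.66) and Fcer1g (-2.26). Microglia markers, whose summed level was 480 to 658 FPKM in 5xFAD and 204 to 232 in WT hippocampus, summed to 102 to 148 and 88.7 to 160 in the meninges of these groups, and their part in these differences was not tested.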

How the results depend on the processing

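Of the 9 genes tested between 5xFAD and WT hippocampus, DESeq2 called 3, limma on log2(FPKM + 0.1) called 2, and limma on log2(FPKM + 1) called 0. When genes needed 1 FPKM in 3 or more samples, 1 gene remained testable and 0 were called. Leaving out each sample gave 1 to 2. Between 5xFAD + light and WT hippocampus, DESeq2 called 2 and limma on log2(FPKM + 0.1) called 1, against 0. In the interaction of genotype and tissue, DESeq2 called 2, limma on log2(FPKM + 1) and the replicate block 0, and leaving out each sample 0 to 1, against 1. The other alternatives kept the number of the 10 genes called within 1.5 times.

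With the replicate number as a block, the interaction of Nkg7 was -4.11 with an adjusted p of 0.0567, and the light effects in hippocampus were 0.11 for Cd3d and 0.048 for Cd8a, of opposite sign to the unblocked fit. The block changed no other call of the 10 genes. Replicate numbers were not used to pair the samples in the main fits. In the interaction, the block was the replicate number within each tissue, which does not link tissues that may come from the same mouse.

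None of the further sign changes was past a threshold. The light effect in hippocampus became 0.00040 for Cd8a with limma on log2(FPKM + 1), and 0.14 for Cd3d and 0.070 for Cd8a with a pseudocount of 0.1. The 5xFAD effect in meninges became 0.090 for Cd3g with limma on log2(FPKM + 1), and 0.16 for Cd3e, 0.15 for Cd3g and 0.034 for Gzmb with 0.1. Leaving out each sample gave the 5xFAD effect in hippocampus a range of -0.27 to 3.08 for Cd3d. The light effect there ranged from -1.27 to 2.13 (Cd3d), -0.73 to 0.043 (Cd3e), -0.61 to 0.38 (Cd3g), -0.75 to 1.33 (Cd8a) and -0.49 to 0.013 (Lck). In meninges the 5xFAD effect ranged from -0.64 to 0.25 (Cd3e), -0.43 to 0.30 (Cd3g), -0.97 to 0.21 (Cd8a) and -0.36 to 0.37 (Gzmb), and the light effect from -0.31 to 0.50 (Cd3g) and -0.20 to 0.86 (Nkg7). The cause of these changes was not tested.

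Counts over all genes depended on the tool and on single samples. Against 16 higher and 18 lower with light in 5xFAD hippocampus, DESeq2 gave 71 and 178 and both limma fits 0, and edgeR gave 0 and 0 without 5xFAD + light replicate 1, 2 or 4, 0 and 2 without 5xFAD replicate 3, and 90 and 77 without 5xFAD replicate 2. In meninges DESeq2 gave 19 and 50 with light against 0 and 2, and 106 and 259 for light against WT. In LECs DESeq2 gave 211 and 160 for 5xFAD against WT and 123 and 383 for 5xFAD + light against 5xFAD. There edgeR called 0 in both comparisons. DESeq2 is the tool that the study's methods name for differential expression. In WT hippocampus, 6 of the 10 genes had 1 to 5 counts in all, so these comparisons rest on few counts.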
